A study of Mus musculus with 16 samples.

Results

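Transcripts of 10 genes of the unfolded protein response and the integrated stress response were followed in 2 hindlimb muscles, gastrocnemius (Gas) and soleus (Sol), from LSD1-mKO mice and their wild type (WT) controls. The genes were chosen by name, as *Atf4*, *Atf3*, *Ddit3*, *Trib3*, *Asns*, *Chac1*, *Hspa5*, *Xbp1*, *Herpud1* and *Sesn2*, and all 10 were found among the 24421 genes counted in each muscle. The integrated stress response halts most protein synthesis when eIF2alpha kinases sense amino acid shortage, misfolded protein, heme loss or viral RNA, while the translation of ATF4 goes up. ATF4 then induces genes of amino acid supply together with the factors CHOP (*Ddit3*) and ATF3 and the regulators TRIB3, CHAC1 and SESN2. The unfolded protein response senses misfolded protein in the endoplasmic reticulum (ER) through PERK, ATF6 and IRE1. Its outputs include the chaperone BiP (*Hspa5*), the ER degradation factor HERPUD1 and the factor XBP1.

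LSD1-mKO mice carried floxed *Lsd1* alleles and a tamoxifen-inducible Cre recombinase (CreERT2) under the human *ACTA1* promoter, which is active in skeletal muscle fibers, and the WT mice carried floxed *Lsd1* without the recombinase. LSD1 is a histone demethylase, and its gene is listed as *Kdm1a*. All mice were C57BL/6 males of 8 weeks. Tamoxifen (75 mg/kg, 5 days) and dexamethasone (Dex, a synthetic glucocorticoid, 1 mg/kg, 7 days) were given to both genotypes, so no muscle without Dex entered a comparison. Libraries of poly(A) RNA numbered 3 for WT and 5 for LSD1-mKO per muscle and came from whole muscle, in which cells other than fibers keep *Lsd1*, and fewer cells of a type cannot be told apart from less RNA per cell.

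Between 10130415 and 24576377 reads per library were assigned to genes, and a gene without a read may still have had up to 3 reads, or 0.103 to 0.340 CPM, counting error only. CPM values are counts per 1000000 reads of the library total, scaled by TMM over all 16 libraries. *Kdm1a* averaged 41.8 ± 5.70 CPM (SD, n = 3) in WT Gas and 14.2 ± 2.19 CPM (SD, n = 5) in LSD1-mKO Gas, and 34.2 ± 0.752 CPM (SD, n = 3) in WT Sol and 10.9 ± 1.72 CPM (SD, n = 5) in LSD1-mKO Sol, with no overlap between genotypes. The libraries WT Gas replicate 3, LSD1-mKO Gas replicate 5 and WT Sol replicate 2 stood apart by a high mean log2 CPM of ribosomal protein genes, at 8.60, 7.87 and 7.23, against 7.05 to 7.41 in the other Gas and 6.38 to 6.79 in the other Sol libraries. Fiber markers (10 of 10 detected) summed to between 73556 and 207791 CPM in every library. The 2 muscles were counted in separate tables with separate library names, so muscle and sequencing set cannot be told apart. Nothing in the labels says that equal replicate numbers are the same mouse.

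The RefSeq promoter windows of all 10 genes (GRCm38.p6, from 250 bases before the start to 50 after it) were searched on both strands for 5 motifs that stress factors are known to bind. The amino acid response element TGATGNAA, a site of ATF4 and its C/EBP partners, was matched in 5 of the 10 windows (*Atf3*, *Chac1*, *Trib3*, *Asns* and *Herpud1*) and in 3.97% of all 32851 windows. The ER stress element, CCAAT and CCACG with a spacer of 9 bases, a site of ATF6 with NF-Y, was matched in *Hspa5* alone among the 10 genes and in 0.119% of all windows. The ER stress element II, ATTGG and CCACG with a spacer of 1 base, was matched in *Herpud1* alone among them and in 0.0365% of all windows. The cyclic AMP response element TGACGTCA (1.79% of all windows) and the unfolded protein response element TGACGTGG (0.676%) were matched in 0 of the 10 windows. No matches of different motifs overlapped in the 10 windows. The upstream sequences of *Chac1*, *Herpud1* and *Atf3* and the matched stretches of *Asns* and *Hspa5* are shown because these 5 genes hold the matches upstream of the start. They run 5′ to 3′ on the gene's strand, the capitals mark the fixed letters of a match, and a site on the other strand reads as its reverse complement (TTgCATCA for the amino acid response element). The *Chac1* and *Atf3* stretches stop where a GENCODE exon of the gene begins. In GENCODE the *Atf3* gene reaches further upstream, to base 191218039, so its stretch lies within the gene. For *Asns* and *Hspa5* a longer GENCODE transcript starts upstream of the match.
Chac1, chr2:119350992-119351228, plus strand: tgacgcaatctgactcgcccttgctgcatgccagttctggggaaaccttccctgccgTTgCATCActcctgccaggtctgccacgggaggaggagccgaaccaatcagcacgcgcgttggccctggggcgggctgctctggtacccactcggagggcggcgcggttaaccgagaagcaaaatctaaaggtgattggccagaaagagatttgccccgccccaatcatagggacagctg
Herpud1, chr8:94386179-94386428, plus strand: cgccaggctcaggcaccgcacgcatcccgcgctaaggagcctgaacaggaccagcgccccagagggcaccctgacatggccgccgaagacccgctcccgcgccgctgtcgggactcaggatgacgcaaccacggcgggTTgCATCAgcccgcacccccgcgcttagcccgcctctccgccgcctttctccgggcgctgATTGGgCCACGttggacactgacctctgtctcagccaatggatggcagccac
Atf3, chr1:191183341-191183583, minus strand: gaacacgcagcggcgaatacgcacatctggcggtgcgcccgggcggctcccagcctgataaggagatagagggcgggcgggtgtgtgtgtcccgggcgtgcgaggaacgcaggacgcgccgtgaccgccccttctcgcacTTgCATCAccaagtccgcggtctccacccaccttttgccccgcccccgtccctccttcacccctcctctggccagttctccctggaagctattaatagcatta
Asns, chr6:7693220-7693237, minus strand: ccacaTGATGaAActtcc
Hspa5, chr2:34772020-34772048, plus strand: cttcaCCAATcggaggcctCCACGacggg
The match lay between bases -193 and -186 from the RefSeq start in *Chac1*, between -110 and -103 in *Atf3* and between -23 and -16 in *Asns*. *Herpud1* held both kinds of match, the amino acid response element at -112 to -105 and the ER stress element II at -52 to -42. In *Hspa5* the ER stress element covered bases -65 to -47, and in *Trib3* the match lay past the start. A match is a description of the letters, not a bound site.

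The first question was whether loss of LSD1 went with other levels of these transcripts under Dex. None of the 10 genes was called in either muscle by the edgeR quasi-likelihood test (adjusted p under 0.05), where 0.0307% of 13040 genes tested were called in Gas and 0.967% of 13342 in Sol. In Sol the log2 fold change (log2FC) of LSD1-mKO over WT was below 0 for 9 of the 10 genes, against 51.8% of all genes tested, with a median of -0.56 against -0.01 for all genes. In Gas 5 of the 10 were below 0, against 48.8% of all genes, with a median of -0.01 against 0.01. At an unadjusted p under 0.05 stood 5 genes in Sol (*Atf4*, *Herpud1*, *Ddit3*, *Trib3* and *Hspa5*, all lower, against 6.84% of all genes) and 1 in Gas (*Ddit3*, lower, against 4.31%). DESeq2 called 1 gene in Sol, *Atf4* (lower), where it called 4.53% of all genes, and 0 in Gas, where it called 1.01%. The edgeR exact test called 0 of the 10 in both muscles.

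**Figure D1:**
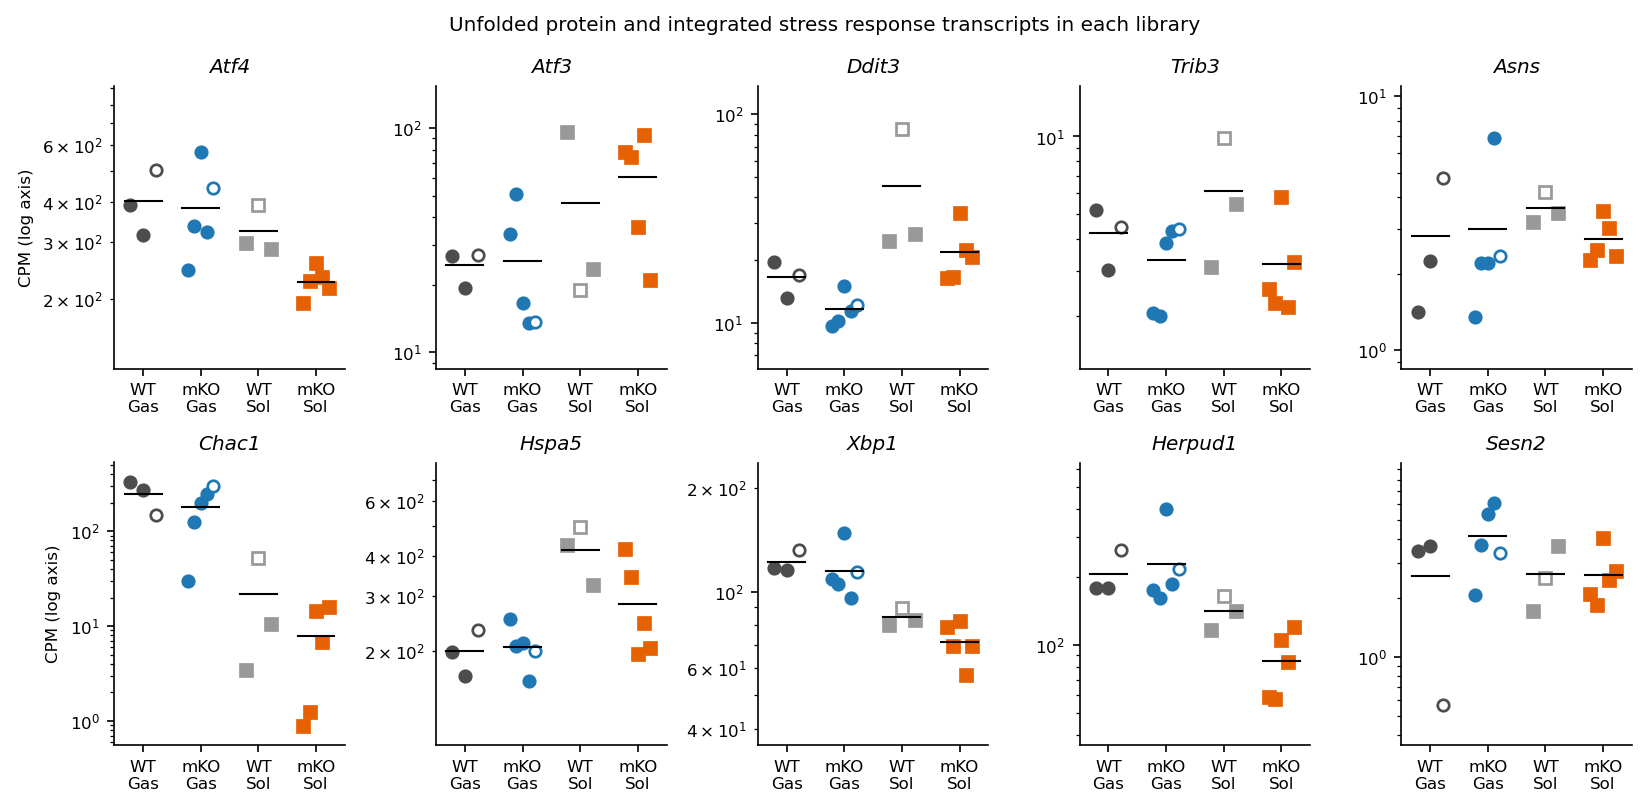
Each panel plots 1 gene on a log axis of CPM, with 1 point per library (circles Gas, squares Sol, WT grey, LSD1-mKO blue or orange, from replicate 1 on the left) and a bar at the group mean. Open points are the 3 libraries of high ribosomal protein level. WT Sol replicate 2 is the highest of the Sol libraries for *Ddit3* (85.5 CPM), *Chac1* (51.9 CPM) and *Trib3* (9.83 CPM), and *Chac1* sits above 29 CPM in every Gas library.

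*Atf4*, the central factor of the integrated stress response, is controlled mainly through translation, which these libraries do not measure. In Sol its transcript stood at 298, 391 and 287 CPM in WT replicates 1 to 3 and at 195, 228, 259, 235 and 216 CPM in LSD1-mKO replicates 1 to 5. Every LSD1-mKO Sol library was below every WT Sol library, which no other of the 10 genes showed in a genotype comparison, and 4.44% of all genes tested in Sol did. The mean was 227 ± 23.4 CPM (SD, n = 5) against 325 ± 56.8 CPM (SD, n = 3), a log2FC of -0.54 (SE 0.155, 95% interval -0.88 to -0.20). The edgeR adjusted p was 0.129, over its alternatives it ran from 0.0267 (DESeq2) to 0.257, and without WT Sol replicate 2 the log2FC was -0.37. In Gas the values were 392, 315 and 504 CPM in WT and 247, 336, 571, 322 and 443 CPM in LSD1-mKO. The 2 genotypes overlapped there, as they did for all 10 genes (6.95% of all genes tested in Gas had no overlap), and the log2FC was -0.07 (SE 0.280, edgeR adjusted p = 0.930).

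*Ddit3* encodes CHOP, a factor that ATF4 induces and that is known to promote cell death under lasting ER stress. In Sol it stood at 24.6, 85.5 and 26.6 CPM in WT and at 16.4, 16.6, 33.7, 22.4 and 20.8 CPM in LSD1-mKO. WT Sol replicate 2 was more than 50 CPM above all other libraries, and the groups overlapped through LSD1-mKO replicate 3. The log2FC was -1.07 (SE 0.387, edgeR adjusted p = 0.223), and without WT Sol replicate 2 it was -0.22 (adjusted p = 0.736). In Gas *Ddit3* stood at 19.6, 13.2 and 17.0 CPM in WT and at 9.68, 10.3, 15.1, 11.4 and 12.2 CPM in LSD1-mKO. There 4 of the 5 LSD1-mKO libraries were below all WT libraries, and LSD1-mKO replicate 3 was above WT replicate 2. The Gas log2FC was -0.50 (SE 0.200, unadjusted p = 0.0309, edgeR adjusted p = 0.526). *Ddit3* lies on the plus strand at chr10:127290774-127296288 (GRCm38), where exons of *Mars*, on the other strand, share 68 of its 890 exon bases in GENCODE, and without strand the reads of the 2 genes there cannot be told apart.

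*Atf3*, an early stress factor that is also induced by tissue injury, was the only one of the 10 genes with a positive log2FC in Sol. It stood at 96.2, 19.0 and 23.6 CPM in WT Sol and at 78.3, 74.3, 36.0, 92.9 and 21.1 CPM in LSD1-mKO Sol. Both genotypes held libraries near 20 CPM and libraries above 70 CPM, and the log2FC was 0.38 (SE 0.559, edgeR adjusted p = 0.801). It was 0.02 without WT Sol replicate 2 and 1.5 without WT Sol replicate 1. In Gas it stood at 26.9, 19.3 and 27.1 CPM in WT and at 33.6, 50.9, 16.6, 13.5 and 13.6 CPM in LSD1-mKO. The 3 WT Gas libraries all lay within the range of the LSD1-mKO libraries, whose highest value was 3.76 times the lowest. The Gas log2FC was 0.08 (SE 0.437, adjusted p = 0.951).

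*Chac1* encodes an enzyme that degrades glutathione and is among the strongest known targets of ATF4. In Sol it stood at 3.48, 51.9 and 10.7 CPM in WT and at 0.892, 1.24, 14.4, 6.79 and 15.8 CPM in LSD1-mKO. The highest library was 14.9 times the lowest within WT and 17.8 times the lowest within LSD1-mKO. The log2FC was -1.51 (SE 0.899, edgeR adjusted p = 0.460), and it was 0.15, in the other direction, without WT Sol replicate 2. In Gas the values were 332, 270.4 and 148 CPM in WT and 29.8, 127, 198, 249.6 and 299 CPM in LSD1-mKO. LSD1-mKO Gas replicates 1 and 2 were below all WT libraries and the other 3 were within the WT range. The Gas log2FC was -0.47 (SE 0.560, adjusted p = 0.750), and it ran from -0.73 to -0.20 when 1 library was left out, the latter without LSD1-mKO Gas replicate 1.

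The other targets of ATF4 were counted at low levels. *Trib3*, a pseudokinase that binds AKT and ATF4, ranged from 3.10 to 9.83 CPM in WT Sol and from 2.17 to 5.81 CPM in LSD1-mKO Sol, with a log2FC of -0.94 (SE 0.399, edgeR adjusted p = 0.287). The value without WT Sol replicate 2 was -0.41, and in Gas the log2FC was -0.35 (SE 0.333, adjusted p = 0.693), from -0.53 without WT Gas replicate 2 to -0.16 without WT Gas replicate 1. *Asns*, the asparagine synthetase, ranged from 3.21 to 4.21 CPM in WT Sol and from 2.26 to 3.54 CPM in LSD1-mKO Sol, a log2FC of -0.42 (SE 0.223, adjusted p = 0.413). Its 5 LSD1-mKO Gas libraries held 1 high value, 6.87 CPM in replicate 4, and the Gas log2FC was 0.12 (SE 0.553, adjusted p = 0.941). *Sesn2*, an inhibitor of mTORC1 that senses leucine, ranged from 1.71 to 3.65 CPM in WT Sol and from 1.83 to 4.01 CPM in LSD1-mKO Sol, with a log2FC of -0.01 (SE 0.317, adjusted p = 0.995). In Gas it had 5 reads in WT replicate 3 and between 44 and 75 in the LSD1-mKO libraries, and the log2FC was 0.61 (SE 0.502, adjusted p = 0.664), or 0.20 without WT replicate 3 and 0.94 without WT replicate 2.

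*Hspa5* encodes BiP, the main Hsp70 chaperone of the ER lumen and the usual readout of ATF6. In Sol it stood at 433, 495 and 323 CPM in WT and at 422, 344, 196, 246 and 205 CPM in LSD1-mKO. LSD1-mKO Sol replicates 3, 4 and 5 were below all WT libraries, and replicates 1 and 2 were within the WT range. The log2FC was -0.58 (SE 0.259, 95% interval -1.14 to -0.01), with an unadjusted p of 0.0478 and an edgeR adjusted p of 0.316. In Gas it ranged from 167 to 233 CPM in WT and from 161 to 252 CPM in LSD1-mKO, with a log2FC of 0.05 (SE 0.198, adjusted p = 0.926). The Gas interval of the log2FC ran from -0.39 to 0.49.

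*Herpud1* encodes an ER membrane protein of the ER-associated degradation complex and answers both ATF4 and ATF6. In Sol it stood at 117, 165 and 142 CPM in WT and at 59.1, 57.9, 106, 84.1 and 120.1 CPM in LSD1-mKO. Of the LSD1-mKO libraries only replicate 5 was above the lowest WT library. The log2FC was -0.74 (SE 0.241, unadjusted p = 0.0101, edgeR adjusted p = 0.173), and without WT Sol replicate 2 it was -0.60. In Gas it stood at 178, 179 and 263 CPM in WT and at 175, 161, 399.9, 185 and 217 CPM in LSD1-mKO, a log2FC of 0.14 (SE 0.311, adjusted p = 0.875). The highest Gas library for *Herpud1* and for *Atf4* was LSD1-mKO replicate 3. It also had the highest summed level of the neutrophil and red blood cell markers, 159 CPM against 13.1 to 67.2 CPM in the other Gas libraries. *Hba-a1* and *Hbb-bs* of that list had no read in any library. Of the pathway lists given below, the same library had the highest Gas sums of stress sensors (966 CPM, next 586 CPM) and amino acid genes (1240 CPM, next 1001 CPM). The same held for stress output factors (3680 CPM, next 2973 CPM) and glucocorticoid response genes (9767 CPM, next 8574 CPM), but not for the other pathway lists. The part of any of these in the *Herpud1* and *Atf4* values was not tested.

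*Xbp1* encodes the factor that IRE1 activates by splicing its messenger RNA, and the counts add the spliced and unspliced forms. Its SD was at most 17.4% of the group mean, the smallest such maximum of the 10 genes over the 4 groups, although *Hspa5* (15.7%) varied less in LSD1-mKO Gas and *Atf4* (10.3%) in LSD1-mKO Sol. It had 80.2 to 89.9 CPM in WT Sol, 57.3 to 82.1 CPM in LSD1-mKO Sol, 115 to 133 CPM in WT Gas and 96.1 to 148 CPM in LSD1-mKO Gas. The log2FC of LSD1-mKO over WT was -0.25 in Sol (SE 0.139, edgeR adjusted p = 0.424) and -0.08 in Gas (SE 0.183, adjusted p = 0.871).

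**Figure D2:**
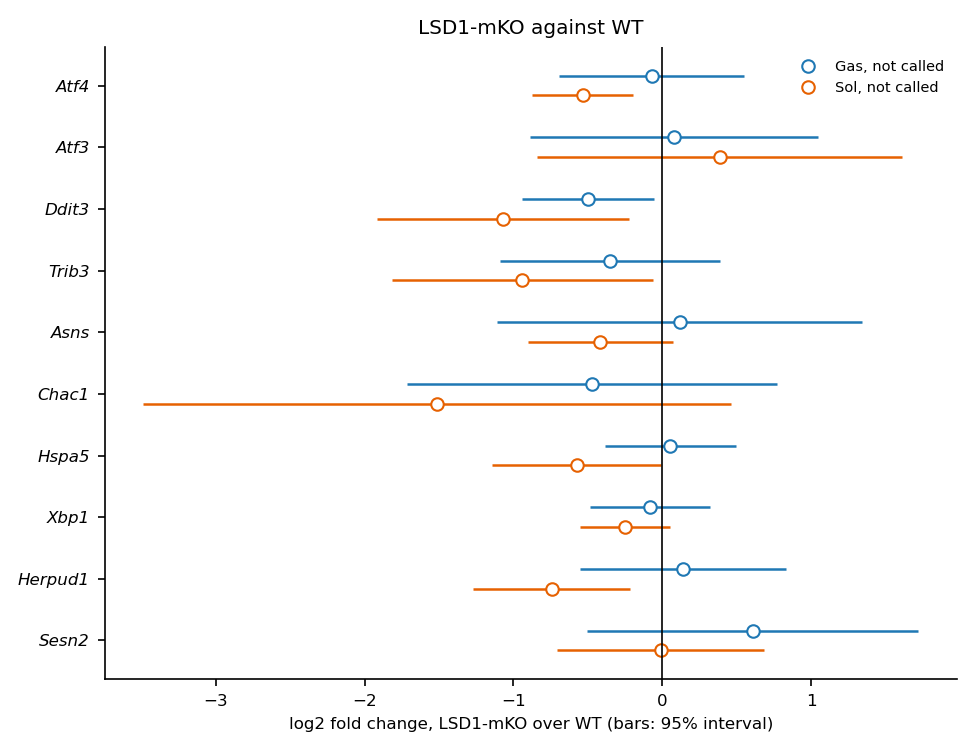
Points give the log2FC of LSD1-mKO over WT for each gene in Gas (blue) and Sol (orange) on a linear axis, and bars are 95% intervals of the quasi-likelihood fit. All points are open because no gene was called, and the Sol intervals of *Atf4*, *Ddit3*, *Trib3*, *Hspa5* and *Herpud1* and the Gas interval of *Ddit3* lie below 0.

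The size of the Sol differences moved with 1 library. WT Sol replicate 2, 1 of the 3 libraries of high ribosomal protein level, was the highest WT Sol library for 8 of the 10 genes (all except *Atf3* and *Sesn2*), and also for the summed adipocyte markers, at 563 CPM against 148 and 309 CPM in the other 2. The adipocyte markers ranged from 114 to 281 CPM in LSD1-mKO Sol, all 5 were detected, and their median log2FC in Sol was -0.70, with 0 of 5 called and 2 at an unadjusted p under 0.05. The log2FC was below 0 for 4 of the 5, while *Cidec* averaged 44.3 CPM in WT and 52.3 CPM in LSD1-mKO Sol. *Cfd* alone ranged from 103 to 444 CPM in WT Sol. Without WT Sol replicate 2, 8 of the 10 log2FC values in Sol were below 0. The median of the 10 was then -0.25, against 0.0068 for all 13582 genes tested in that fit. The part of the ribosomal protein level or of adipocytes in the differences was not tested further.

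The genotype effect was then compared between the muscles. The log2FC in Gas minus that in Sol was above 0 for 9 of the 10 genes, against 48.7% of 13749 genes tested, with a median of 0.56 against -0.01 for all genes. None of the 10 was called by the edgeR quasi-likelihood test of the interaction, which called 0 genes (0.0%) and gave 671 genes (4.88%) an unadjusted p under 0.05, of which 0 were among the 10. DESeq2 called 21 genes and the edgeR likelihood ratio test called 14, with 0 of the 10 in both. *Herpud1* had the smallest p of the 10, at 0.0578 unadjusted, with a difference of 0.86 on the log2 scale (SE 0.425, edgeR adjusted p = 0.987). *Hspa5* followed with 0.61 (SE 0.344), and *Chac1* had the largest difference, 1.01, with the largest error (SE 1.22). Without the 3 libraries of high ribosomal protein level, 7 of the 10 differences were above 0. Their median over the 10 genes was then 0.28, against 0.0053 for all 13873 genes tested in that fit.

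Other genes of the same pathways were read from 9 lists. For the counts at an unadjusted p under 0.05 below, in either direction, the genotype comparison gave 1182 of all 13040 genes in Gas. In Sol it gave 2069 of all 13342 genes. Of 17 stress sensors and translation regulators, which include the eIF2alpha kinases, ATF6 and the phosphatase regulators, 0 were called in either genotype comparison, with a median log2FC of 0.24 in Gas and 0.08 in Sol, and 2 in Gas and 0 in Sol had an unadjusted p under 0.05. *Eif2s1*, the phosphorylated subunit of eIF2 itself, was the one sensor gene whose groups did not overlap (higher in Gas, log2FC 0.32, SE 0.154, edgeR adjusted p = 0.555). Of 17 amino acid synthesis and transport genes 16 were tested and 0 called, 2 in Gas and 4 in Sol had an unadjusted p under 0.05, and the median log2FC was 0.24 in both muscles. *Psat1*, of serine synthesis, had non-overlapping groups in both muscles, at 2.92 CPM in WT and 6.35 CPM in LSD1-mKO Gas (log2FC 1.13, SE 0.308, edgeR adjusted p = 0.378) and at 11.05 and 17.9 CPM in Sol (0.68, SE 0.188, adjusted p = 0.112). *Slc7a5*, a leucine transporter, had them in Sol, at 4.82 and 10.7 CPM (1.14, SE 0.322, adjusted p = 0.121). *Cth*, of cysteine synthesis, was lower in all LSD1-mKO Sol libraries (5.38 to 8.60 CPM) than in WT Sol (10.3 to 11.5 CPM), at a log2FC of -0.60 (SE 0.184, adjusted p = 0.148), and was named after its values were seen. *Psat1*, *Slc7a5* and *Cth* were the 3 of 16 amino acid genes without overlap in Sol, against 10.8% of all genes. In Sol DESeq2 and the edgeR exact test both called *Psat1* and *Slc7a5* higher.

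The 13 aminoacyl-tRNA synthetases and tRNA factors include many ATF4 targets, and 0 of the 13 were called by genotype in either muscle, while 2 in Gas and 3 in Sol reached an unadjusted p under 0.05. The log2FC was below 0 for 12 of 13 in Sol (median -0.17, against 51.8% of all genes) and for 3 of 13 in Gas (median 0.08, against 48.8%). The difference between the muscles was above 0 for 13 of 13 (median 0.28, against 48.7% of all genes), with 0 called and 3 at an unadjusted p under 0.05. *Aars*, the alanyl-tRNA synthetase, averaged 174 CPM in WT and 124 CPM in LSD1-mKO Sol with no overlap (log2FC -0.49, SE 0.121, edgeR adjusted p = 0.0827), and DESeq2 and the exact test called it. Of the 17 stress output factors, 15 were tested in Gas and 16 in Sol with 0 calls, and 2 and 3 had an unadjusted p under 0.05. *Atf5*, a factor that like ATF4 is raised by translation control, had non-overlapping groups in both muscles in opposite directions, from 75.1 CPM in WT to 120 CPM in LSD1-mKO Gas (log2FC 0.68, SE 0.198, adjusted p = 0.418) and from 108 to 75.3 CPM in Sol (-0.53, SE 0.163, adjusted p = 0.150). DESeq2 and the likelihood ratio test called the *Atf5* difference between muscles, and the quasi-likelihood test did not.

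Of 20 ER chaperones and folding enzymes 0 were called, 0 in Gas and 3 in Sol had an unadjusted p under 0.05, and the median log2FC was 0.06 in Gas and -0.25 in Sol. In Sol *Fkbp2*, an ER prolyl isomerase, averaged 12.4 CPM in WT and 8.04 CPM in LSD1-mKO (log2FC -0.64, SE 0.227, edgeR adjusted p = 0.216), and *Ero1lb*, an oxidase for disulfide bonds, 2.42 and 1.67 CPM (-0.54, SE 0.241, adjusted p = 0.308), both with no overlap. Of the ER-associated degradation and export genes 20 of 21 were tested and 0 called, 2 in Gas and 3 in Sol had an unadjusted p under 0.05, and the medians were -0.01 in Gas and 0.05 in Sol. The 8 mitochondrial chaperones and proteases, with 0 calls and an unadjusted p under 0.05 for 0 in Gas and 3 in Sol, were all below 0 in Sol (median -0.26) and above 0 for 6 of 8 in Gas (median 0.03). The co-chaperonin *Hspe1* averaged 66.2 CPM in WT and 47.2 CPM in LSD1-mKO Sol without overlap (-0.50, SE 0.148, adjusted p = 0.135), and the protease subunit *Clpx* 225 and 166 CPM (-0.45, SE 0.159, adjusted p = 0.216).

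The last pathway lists were immediate early genes, a class to which *Atf3* also belongs, and glucocorticoid response genes, since every mouse received Dex. Of 16 immediate early genes tested 0 were called, an unadjusted p under 0.05 was reached by 0 in Gas and 1 in Sol, and the medians were 0.08 and -0.09. Of 11 glucocorticoid response genes 0 were called, with 1 and 2 at an unadjusted p under 0.05 and medians of 0.06 and -0.21. Of 7 lists of cell type markers, fibroblasts held the one called gene, *Postn*, at 51.3 CPM in WT and 287 CPM in LSD1-mKO Sol (log2FC 2.47, SE 0.450, edgeR adjusted p = 0.0307). DESeq2 and the exact test also called *Postn* higher in Gas, where the other 6 fibroblast markers had a log2FC below 0 (median of the 7 markers -0.29, 3 at an unadjusted p under 0.05), among them *Col1a2* (-0.75) and *Dcn* (-0.69). In Sol 5 of the 7 were above 0 (median 0.44), and *Dcn* (-0.60) and *Col1a2* (-0.13) were below. Of 7 macrophage and leukocyte markers tested in Sol 6 were above 0 (median 0.38), 0 were called and 2 had an unadjusted p under 0.05. In Gas 3 of 7 were above 0 (median -0.07), with 0 called and 2 at an unadjusted p under 0.05. *Cd68* averaged 2.86 CPM in WT and 11.1 CPM in LSD1-mKO Sol with no overlap (log2FC 1.95, SE 0.452, edgeR adjusted p = 0.0699), and DESeq2 and the exact test called it. Summed fibroblast markers ranged from 978 to 1613 CPM in WT Sol and from 737 to 2634 CPM in LSD1-mKO Sol, and the highest library was LSD1-mKO Sol replicate 1, the library with the lowest *Chac1*. The part of these cell types in the Sol differences was not tested.

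**Figure D3:**
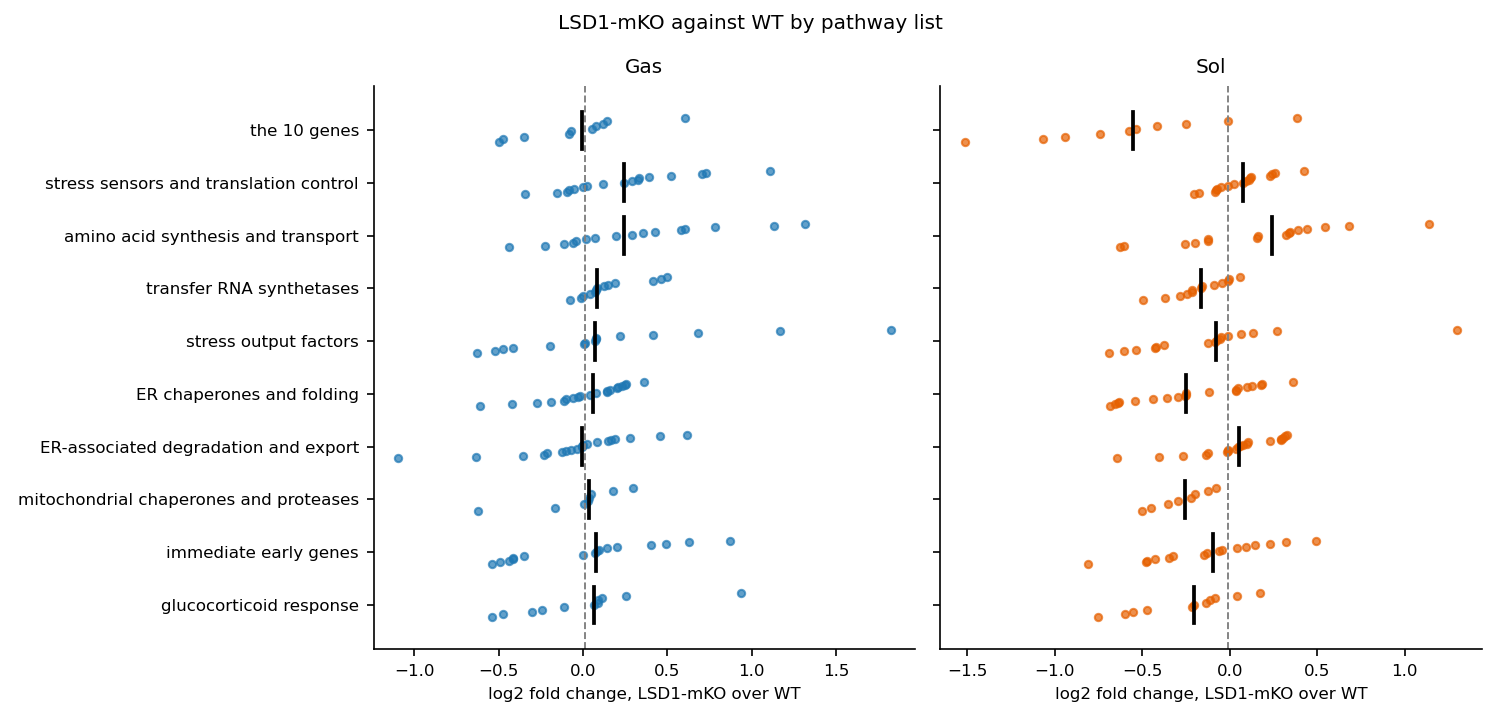
Points are the log2FC values of LSD1-mKO over WT of the tested genes of each list in Gas (left) and Sol (right), on linear axes with different ranges, black bars are list medians and the dashed line is the median of all genes tested. With all libraries the median of the 10 genes in Sol (-0.56) is below those of the 9 pathway lists, and their Gas median is -0.01. Without WT Sol replicate 2 the Sol median of the 10 genes was smaller in size, as given above.

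The second question was how the muscles differed within a genotype. In WT 4 of the 10 genes were called between Gas and Sol (17.0% of 13749 genes tested), with *Chac1* and *Xbp1* higher (8.25% of all genes) and *Ddit3* and *Hspa5* lower (8.75%) in Gas. In LSD1-mKO 5 were called (24.5% of all genes), with *Chac1*, *Herpud1*, *Xbp1* and *Atf4* higher (11.6%) and *Ddit3* lower (12.9%) in Gas. The groups did not overlap for 5 genes in WT (30.3% of all genes) and 4 in LSD1-mKO (20.9%). With 10 genes these counts are a description beside the shares of all genes.

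*Chac1* had the widest difference of the 10. Its level was 250.2 ± 93.9 CPM (SD, n = 3) in WT Gas and 22.0 ± 26.1 CPM (SD, n = 3) in WT Sol, 11.4-fold higher in Gas (log2FC 3.51, SE 1.05, edgeR adjusted p = 0.0296). In LSD1-mKO it was 181 ± 106 CPM (SD, n = 5) in Gas and 7.84 ± 7.08 CPM (SD, n = 5) in Sol, 23.1-fold higher in Gas (4.53, SE 0.855, adjusted p = 0.000956). No Gas library of a genotype was below a Sol library of the same genotype. The WT call was lost without WT Gas replicate 1 (adjusted p = 0.0606), WT Sol replicate 1 (0.116) or WT Sol replicate 3 (0.126) and with the ribosomal protein covariate (0.0614), while the LSD1-mKO adjusted p stayed under 0.0041 in all fits that left out a library. *Xbp1* was 1.44-fold higher in Gas in WT (log2FC 0.53, SE 0.177, adjusted p = 0.0493) and also higher in LSD1-mKO (0.68, SE 0.137, adjusted p = 0.00164). Of the 16 fits that left out 1 library, its WT call was kept without LSD1-mKO Gas replicate 3 or LSD1-mKO Sol replicate 4 and lost in the other 14, with an adjusted p of at most 0.164. It was lost as well without the 3 libraries of high ribosomal protein level (0.0780), without a filter on low counts (0.110), by the exact test (0.146) and with the ribosomal protein covariate (0.201).

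*Herpud1* was 2.67-fold higher in Gas in LSD1-mKO (228 ± 98.5 against 85.3 ± 27.7 CPM, SD, n = 5 each), a log2FC of 1.41 (SE 0.265, edgeR adjusted p = 0.000890). In WT the 3 Gas libraries were also all above the 3 Sol libraries, at a log2FC of 0.55 (SE 0.336, adjusted p = 0.277). *Atf4* was 1.69-fold higher in Gas in LSD1-mKO (0.76, SE 0.203, adjusted p = 0.0114), where LSD1-mKO Gas replicate 1, at 247 CPM, lay below the highest Sol library of 259 CPM. In WT its log2FC was 0.31 (SE 0.261, adjusted p = 0.435).

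*Ddit3* was 2.74-fold lower in Gas in WT (16.6 ± 3.24 against 45.6 ± 34.6 CPM, SD, n = 3 each), a log2FC of -1.45 (SE 0.391, edgeR adjusted p = 0.0174). Without WT Sol replicate 2 it was -0.63 (adjusted p = 0.118), and without WT Gas replicate 2 the adjusted p was 0.0539. In LSD1-mKO it was 1.88-fold lower in Gas (-0.91, SE 0.302, adjusted p = 0.0371), and every Gas library was below every Sol library. This call was lost without any 1 of 7 libraries, namely LSD1-mKO Gas replicates 1, 2, 4 and 5 and LSD1-mKO Sol replicates 3, 4 and 5, with an adjusted p of at most 0.113. *Hspa5* was 2.09-fold lower in WT Gas (199.6 ± 32.8 against 417 ± 87.3 CPM, SD, n = 3 each), a log2FC of -1.06 (SE 0.275, adjusted p = 0.0136), a call kept in all 16 fits without 1 library. In LSD1-mKO the log2FC was -0.45 (SE 0.211, adjusted p = 0.127).

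*Atf3* had a log2FC of -0.93 (SE 0.629, edgeR adjusted p = 0.332) in WT and -1.24 (SE 0.488, adjusted p = 0.0736) in LSD1-mKO. With the replicate number as a block, since equally numbered LSD1-mKO libraries of the muscles deviated together, the LSD1-mKO value was -1.23 (SE 0.348, adjusted p = 0.0261), and the exact test called it too (adjusted p = 0.0242). It was called as well without LSD1-mKO Gas replicate 2 (0.0267), WT Sol replicate 1 (0.0430) or LSD1-mKO Sol replicate 5 (0.0381). *Trib3*, *Asns* and *Sesn2* had log2FC values between -0.53 and 0.63 in both genotypes, and the lowest of their adjusted p values was 0.234. The 2 muscle comparisons use different libraries, and the 4 groups shared 1 estimate of the spread.

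**Figure D4:**
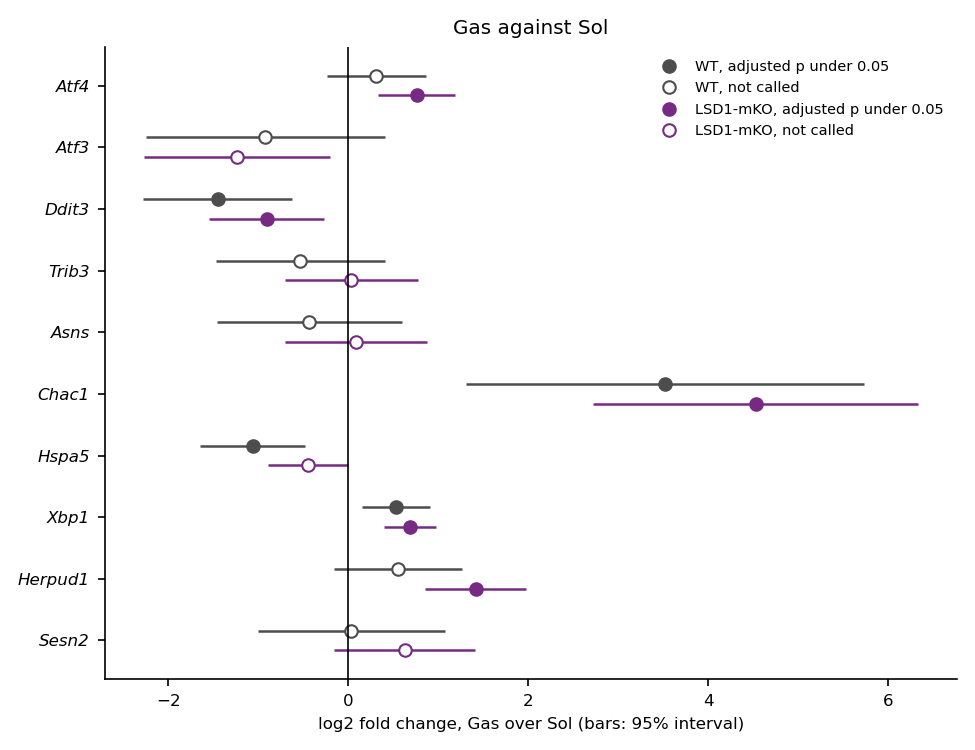
Points give the log2FC of Gas over Sol for each gene in WT (grey) and LSD1-mKO (purple) on a linear axis, bars are 95% intervals, and filled points were called. *Chac1* lies at 3.51 and 4.53, and *Ddit3* lies at -1.45 and -0.91.

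The list counts that follow stand beside the shares of all 13749 genes tested. In WT 8.25% were called higher and 8.75% lower in Gas, and in LSD1-mKO 11.6% and 12.9%. Of 16 stress output factors tested, 2 were called higher and 1 lower in Gas in WT, and 5 higher and 2 lower in LSD1-mKO. *Gadd45a*, a growth arrest factor, averaged 57.2 ± 34.8 CPM in WT Gas and 8.85 ± 5.93 CPM in WT Sol (SD, n = 3 each). The log2FC was 2.70 (SE 0.693, edgeR adjusted p = 0.0134). In LSD1-mKO it averaged 128 ± 115 CPM in Gas, from 38.6 to 326 CPM, and 8.44 ± 3.90 CPM in Sol (SD, n = 5 each). The log2FC there was 3.92 (SE 0.560, adjusted p = 8.27e-05). *Eif4ebp1*, the translation repressor 4E-BP1, was also called higher in both genotypes (1.33 in WT and 1.51 in LSD1-mKO), *Ddit4*, an inhibitor of mTORC1, in LSD1-mKO (2.82, SE 0.424), and *Nfe2l1* lower in both (-0.77 and -0.70). Of 16 amino acid genes 1 was called higher and 5 lower in WT, and 1 higher and 4 lower in LSD1-mKO. The higher one was the alanine transaminase *Gpt2* (2.10 in WT and 3.14 in LSD1-mKO), and *Psat1* (-1.93 and -1.50) and the cationic amino acid transporter *Slc7a1* (-1.27 and -1.39) were lower.

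Of 17 sensors and translation regulators the ER sensor *Atf6* was called lower in Gas in both genotypes (-1.27, SE 0.337, edgeR adjusted p = 0.0165 in WT and -0.81, SE 0.258, adjusted p = 0.0308 in LSD1-mKO). *Ppp1r15a*, the eIF2alpha phosphatase subunit GADD34, was called higher in LSD1-mKO Gas (98.6 ± 105 against 24.5 ± 6.39 CPM, SD, n = 5 each, log2FC 2.01, SE 0.461, adjusted p = 0.00433), and *Eif2ak2* lower (-0.66). In WT *Ppp1r15a* was not called, but every Gas library was above every Sol library (78.1 against 27.4 CPM, log2FC 1.51, SE 0.588, adjusted p = 0.0867). Of 20 ER chaperones and folding genes 1 was called higher and 2 lower in each genotype, with *Canx*, the lectin chaperone calnexin, lower (-0.95 and -0.70) and *Sil1*, the exchange factor of BiP, higher (0.84 and 0.72) in both. Of 20 ER-associated degradation and export genes, *Sec61b* was called higher in both (2.11 and 1.12), and LSD1-mKO added *Syvn1* higher and 4 genes lower. Of 13 synthetases and tRNA factors *Xpot* was called lower in both (-0.66 and -0.55), and *Mars* and *Yars* higher in LSD1-mKO (0.50 and 0.44). Of 8 mitochondrial genes *Hspa9* (-0.76 and -0.39) and *Hspd1* (-0.62 and -0.44) were called lower in both, and *Trap1* higher in LSD1-mKO (0.44). Of 16 immediate early genes 3 were called higher in WT (*Jun*, *Nr4a1* and *Klf6*) and 0 lower, and in LSD1-mKO 3 higher (*Junb*, *Nr4a1* and *Klf6*) and 2 lower (*Egr1* and *Dusp1*). Of 11 glucocorticoid response genes 3 were called higher in WT and 6 in LSD1-mKO and none lower, and by adjusted p the first of them was *Tsc22d3* in both (1.75 and 1.93).

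Marker lists also differed between the muscles. The fast fiber genes *Myh4*, *Tnnt3* and *Myoz1* were called higher in Gas in both genotypes, and the slow fiber genes *Myh7* and *Tnnt1* and the fast oxidative myosin *Myh2* lower, with *Myh4* at 46205 CPM in WT Gas and 74.7 CPM in WT Sol and *Myh7* at 180.5 and 7903 CPM. Of 8 macrophage and leukocyte markers tested, 7 in WT and 6 in LSD1-mKO had a log2FC of Gas over Sol above 0 (medians 0.64 and 0.27). *C1qa* was called higher in both genotypes (1.83 and 1.05), and *Cd68* was called lower in LSD1-mKO (-1.22). Of 7 fibroblast markers 5 were above 0 in WT (median 0.11) and 1 in LSD1-mKO (median -0.75). *Postn* was called lower in Gas in both genotypes (-2.38 and -3.43), *Col3a1* was called lower in LSD1-mKO (-1.70), and *Dcn* had a log2FC of 0.69 in WT and 0.58 in LSD1-mKO without a call. The part of fiber type or other cells in the differences of the 10 genes was not tested.

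Libraries were also ordered by each gene within a muscle. *Chac1* and *Atf3* ran most nearly opposite of the 45 pairs of the 10 genes. Of the 28 pairs of libraries in a muscle, 20 in Gas and 23 in Sol had the higher *Chac1* where *Atf3* was lower. LSD1-mKO Gas replicates 4 and 5 had the lowest *Atf3* (13.5 and 13.6 CPM) and *Chac1* levels of 249.6 and 299 CPM, and LSD1-mKO Sol replicates 1 and 2 had *Chac1* at 0.892 and 1.24 CPM and *Atf3* at 78.3 and 74.3 CPM. By the same count *Ddit3* and *Trib3* were most often in the same order, in 23 of 28 pairs in each muscle, and *Atf4* and *Herpud1* were in 23 in Gas and 22 in Sol. By the mean difference in rank *Ddit3* and *Xbp1* were nearest (1.00), with *Ddit3* and *Trib3* and *Atf4* and *Ddit3* tied next. These orders share library and depth, mix genotypes within a muscle and are given without a test.

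**Figure D5:**
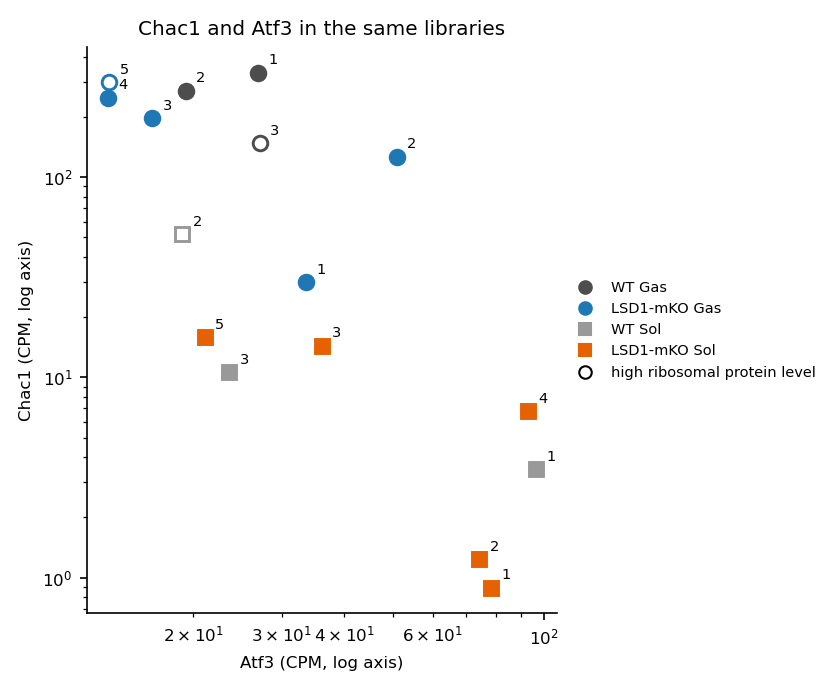
Each point is 1 library, with *Atf3* on the horizontal and *Chac1* on the vertical axis, both in CPM on log axes, and numbers are the replicates of the group given by shape and color. Sol libraries of *Atf3* above 70 CPM have *Chac1* below 7 CPM, and open symbols mark the 3 libraries of high ribosomal protein level.

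Likeness to 4 of the genes was measured over the 16 libraries as the mean absolute difference in rank within a muscle, where 0 is the same order and 2.625 the average of unrelated orders, among 13748 genes. Nearest to *Hspa5* were *Hsp90b1*, the ER chaperone GRP94, and *Lta4h*, tied at 0.875, then *Ccdc58*, *Gm826* and *Tmem161b* (1.00 each). Nearest to *Atf3* were *Fos*, an immediate early gene, and *Rnft1* (1.00 each), then *Atp7a*, *Azin1* and *Cul5* (1.12 each). Nearest to *Atf4* were *Clpx*, *Ifrd1* and *Qtrt1* (0.625 each), then *Gas5* and *Rnmtl1* (0.750 each). Nearest to *Ddit3* were *Brd2*, *Mapk1ip1*, *Nov* and *Taf8* (0.625 each) and *Abtb1* (0.750). With this many genes such values are a description of 16 libraries.

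Levels between genes were compared per length, as CPM per kilobase of GENCODE exon (RPKM), with gene models that may differ from those of the counts. *Atf4* had the highest RPKM of the 10 in all 4 groups, from 131 ± 13.6 RPKM (SD, n = 5) in LSD1-mKO Sol to 234 ± 55.0 RPKM (SD, n = 3) in WT Gas, and *Sesn2* had the lowest, between 0.738 and 1.19 RPKM. *Chac1* took the second place in WT Gas (153 ± 57.4 RPKM, SD, n = 3) and the third in LSD1-mKO Gas (110.3 ± 64.6 RPKM, SD, n = 5), and the seventh in both Sol groups (13.4 ± 15.96 RPKM, SD, n = 3, and 4.79 ± 4.32 RPKM, SD, n = 5). *Hspa5* took the fourth place in both Gas groups and the second in both Sol groups. *Trib3* (1.58 to 3.02 RPKM) and *Asns* (1.26 to 1.68 RPKM) came just above *Sesn2* in all 4 groups.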

How the data were processed

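RNA of 16 muscle libraries was sequenced by the authors as 75 bp single-end poly(A) reads, aligned with STAR to mm10 and counted per gene with featureCounts 1.5.2 without a strand option, and the raw counts as deposited, 1 table per muscle, were the values used. Columns that hold the authors' own edgeR comparisons were not used. The 10 genes, the lists of other genes and the tests were chosen with earlier results of these data known. Genes with enough reads (filterByExpr, minimum count 10) were scaled by TMM and tested in R 4.3.3 with the two-sided quasi-likelihood test of edgeR 4.0.16. Each muscle was fitted on its own for LSD1-mKO against WT, and all 16 libraries together for Gas against Sol and for the interaction. P values were adjusted by Benjamini-Hochberg over all genes tested, and a gene was called at an adjusted p under 0.05. All adjusted p values are from this edgeR test unless DESeq2 1.42.0 or the edgeR exact or likelihood ratio test is named. SE was derived from the F statistic, as the size of the log2 fold change over its square root. The scripts were tested on simulated data.

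The 10 genes were always named. A list named its called genes in order of adjusted p (at most 4), or otherwise at most 2 whose groups did not overlap. Gene lengths came from GENCODE (GRCm38). Other scaling, no filter, DESeq2, the other edgeR tests, a replicate block, a ribosomal protein covariate and leaving out libraries were tried, and leaving out the 3 libraries of high ribosomal protein level was chosen after seeing the data. Replicates are taken as separate mice, which the labels number within a group. Deviations of equally numbered LSD1-mKO libraries correlated between Gas and Sol in all 5 pairs (0.212 to 0.359), and each of the 5 correlated best with its own number. These numbers were thus read as pairing the samples, but only the replicate block used them. The main fits across the muscles treated all 16 libraries as separate. In WT 1 of 3 pairs was above 0.1 (-0.515 to 0.123), and between genotypes 2 of 3 in Gas and 1 of 3 in Sol, so those were not taken as pairs. The replicate block joined equal numbers there all the same. Its WT, genotype and interaction results therefore rest on libraries not taken as pairs.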

Additional observations from a re-analysis of the deposited data

Results flagged for a closer look

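In 2 of the 20 groups of 5 libraries examined, 1 library stood apart from the others of its group by a gap to the nearest that took more than 0.710 of the whole range, and chance gives about 1 in 20, or 1 of these 20. *Asns* in LSD1-mKO Gas replicate 4, at 6.87 CPM against 2.35 CPM for the next library, had a gap of 0.819 of the range. *Herpud1* in LSD1-mKO Gas replicate 3, at 399.9 CPM against 217 CPM for the next, had a gap of 0.766. Without those libraries the Gas log2 fold change of LSD1-mKO over WT was -0.42 for *Asns* and -0.16 for *Herpud1*, against 0.12 and 0.14 with them. Groups of 3 were not examined.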

How the results depend on the processing

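Values are log2 fold changes unless said otherwise. In Gas the genotype comparison called 4 genes of all tested, 10 with no filter, 132 by DESeq2, 104 by the exact test and 1 to 7 without 1 library. In Sol it called 129, against 336 with no filter, 605 by DESeq2 (1 of the 10 genes), 560 by the exact test, 412 with the replicate block, 281 with the ribosomal protein covariate, 23 without WT Sol replicate 2 (the same fit as without the 3 libraries of high ribosomal protein level) and 11 to 228 without 1 library. The interaction called 0, against 21 by DESeq2, 14 by the likelihood ratio test, 1 with the replicate block and 0 to 1 without 1 library. Gas against Sol called 2337 in WT (1132 to 2839 without 1 library) and 3367 in LSD1-mKO (2618 to 4409). Of the 10 genes it called 4 in WT (2 to 4 without 1 library) and 5 in LSD1-mKO (4 to 6). With the ribosomal protein covariate it called 2 of the 10 in WT, beside 1893 of all 13749 genes. Without the 3 libraries it called 2 in WT, beside 3010 of all 13873 genes. The causes were not tested.

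For single genes the direction turned as follows. In Gas by genotype *Atf4* was 0.071 with the ribosomal protein covariate and 0.078 without the 3 libraries. *Asns* was -0.40 there with the replicate block, whose numbers do not pair the genotypes. In Sol *Chac1* was 0.15 without the 3 libraries and *Sesn2* 0.0092 with no filter. For the interaction without the 3 libraries *Atf3* was 0.30, *Ddit3* -0.29, *Trib3* -0.061 and *Chac1* -1.17. Between muscles in WT *Atf4* was -0.033 with the covariate and *Sesn2* -0.050 with the block. In LSD1-mKO *Trib3* was -0.33 with the covariate and -0.10 without the 3 libraries, and *Asns* -0.061 with the block and -0.15 with the covariate. Without 1 library the Gas range was -0.25 to 0.13 for *Atf4*, -0.33 to 0.24 for *Atf3*, -0.42 to 0.68 for *Asns*, -0.034 to 0.18 for *Hspa5* and -0.16 to 0.36 for *Herpud1*. The Sol range was -2.01 to 0.15 for *Chac1* and -0.25 to 0.32 for *Sesn2*. The interaction range was -1.40 to 0.064 for *Atf3*, -0.28 to 0.87 for *Ddit3* and -0.63 to 1.54 for *Chac1*. In WT the muscle range was -1.30 to 0.19 for *Atf3* and -0.28 to 0.46 for *Sesn2*, and in LSD1-mKO -0.10 to 0.38 for *Trib3* and -0.42 to 0.28 for *Asns*. None of these values was called.

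The replicate block changed 2 calls among the 10 genes: *Atf3* in LSD1-mKO between muscles was gained, as given above, and *Ddit3* in WT between muscles, where the numbers do not pair the samples, had an adjusted p of 0.0521. Without the 3 libraries *Ddit3* in WT was -0.62 (edgeR adjusted p = 0.181), and with the ribosomal protein covariate *Sesn2* in LSD1-mKO was called (1.14, adjusted p = 0.0396). The lowest counts were 5 reads for *Sesn2* and 21 for *Chac1*.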
